A study of Mus musculus with 12 samples.

Results

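Rows 13719, 13720 and 13723 of a single-cell count table of mouse liver were followed, 3 of its 18326 features. They were chosen by their place among 13 adjacent rows, 13717 to 13729, whose order and abundance were read against the mitochondrial gene order. The summed unique molecular identifiers (UMIs, tags that mark single captured transcripts) of these 13 rows gave the deposited mitochondrial percentage in 31003 of 31003 cells. The 3 rows stand at places 3, 4 and 7 of these 13. In the GENCODE vM21 annotation of the mouse genome build GRCm38, the mitochondrial genome holds 13 protein-coding genes, and in their order along it these places belong to the genes of subunits I, II and III of cytochrome c oxidase. They are mt-Co1 at chrM:5328-6872 (1545 bp), mt-Co2 at chrM:7013-7696 (684 bp) and mt-Co3 at chrM:8607-9390 (784 bp), all on the plus strand. The files number the features and do not pair the numbers with names, so this reading of the order was not established here and the rows are called by number. Of the 13 rows, row 13728 at place 12 had the fewest UMIs (0.114% of mitochondrial UMIs), and place 12 in the annotation belongs to mt-Nd6, the 1 protein-coding gene on the minus strand. Abundance entered the choice of the rows, so this is no separate test of the reading.

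Cytochrome c oxidase, or complex IV, is the last enzyme of the respiratory chain. It takes electrons from cytochrome c, passes them to oxygen and moves protons across the inner mitochondrial membrane. Its catalytic core is encoded in the mitochondrial genome: subunit I holds the heme and copper site that reduces oxygen, subunit II holds the copper centre that receives electrons from cytochrome c, and subunit III carries no redox centre and supports the core. The remaining subunits are encoded in the nucleus and were not analysed here. The mitochondrial genome is transcribed from each strand as long precursors that are cut mostly at intervening tRNAs, so the messages of the plus-strand genes start in the same precursor and their levels afterwards depend on processing and decay. Hepatocytes are rich in mitochondria.

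The cells came from wild-type (WT) mice of strain 129S6/SvEv, with no other allele and no treatment named. Female and male livers at zeitgeber times ZT10 and ZT22, hours after lights on, gave 4 groups with 3 libraries each. After collagenase perfusion of the liver, hepatocytes were enriched by centrifugation, stored frozen and thawed before 10x Genomics Chromium v3 library construction. The labels do not say whether the replicates were separate animals, so p-values measure the spread between these libraries, which may be technical. Because the features carry no names, hepatocyte markers and markers of other liver cells could not be looked up. The 12 libraries held 100273202 UMIs, from 2284202 to 14654630 each, in 494 to 3949 cells, and 13684825 UMIs were mitochondrial.

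Some libraries stood apart before any comparison. The median intronic fraction per cell, the deposited share of a cell's signal in introns, was 0.510 in male ZT22 replicate 2 and lay between 0.211 and 0.319 in the other 11. Female ZT10 replicate 1 had the lowest mitochondrial share of UMIs, 7.01%, and female ZT10 replicate 2 the highest, 17.9%. Male ZT10 replicate 2 was deposited as 2 library parts that differed. Its first part, 406 cells, had 11.2% mitochondrial UMIs and 1.77 UMIs of row 13719 for each UMI of row 13720, and its second part, 88 cells, had 23.5% and 1.24. Across libraries, 120 cell barcodes occurred in 2 libraries each, which concerns 240 cells.

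The 3 rows were among the most abundant mitochondrial rows. Abundance had a part in their choice, so their ranks are given as a description. Together they held 7236225 UMIs, 52.9% of mitochondrial UMIs and 7.22% of all UMIs. Row 13719 came first of the 13 with 21.9% of mitochondrial UMIs, row 13723 second with 17.7% and row 13720 took rank 4 with 13.3%. Row 13722, at place 6, took rank 3, close to row 13723, with 2416792 against 2422825 UMIs. These are shares of captured molecules counted from transcript ends, and capture was not compared between the rows, so they do not rank the genes by level. They serve to compare each row with itself across libraries and cells.

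The share of all UMIs spread more than 2-fold between libraries for each row. Row 13719 held 1.52%, 3.84% and 2.67% of all UMIs in female ZT10 replicates 1 to 3, and 3.35%, 3.29% and 2.61% in female ZT22. In males it held 3.23%, 2.89% and 2.98% at ZT10, and 3.38%, 3.05% and 3.34% at ZT22. The 6 male libraries lay close together, while the lowest and the highest library were both female at ZT10.

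Row 13720 took 0.853%, 2.74% and 1.69% of all UMIs in the female ZT10 libraries, and 2.41%, 2.34% and 1.68% in the female ZT22 libraries. The male values were 1.51%, 1.77% and 1.66% at ZT10, and 1.95%, 2.39% and 1.64% at ZT22. The same female ZT10 libraries were lowest and highest, and the groups overlapped.

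Row 13723 took 1.33%, 3.11% and 2.20% in female ZT10, and 3.18%, 3.16% and 2.23% in female ZT22. In males its share was 2.08%, 2.23% and 2.08% at ZT10, and 2.78%, 3.16% and 2.38% at ZT22. Here the 3 male ZT22 libraries lay above the 3 male ZT10 libraries, while in females the 2 times overlapped. How many of all features separate the male libraries in this way was not counted. In the test of time over both sexes given next, 7.82% of all features passed and row 13723 did not.

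**Figure D1:**
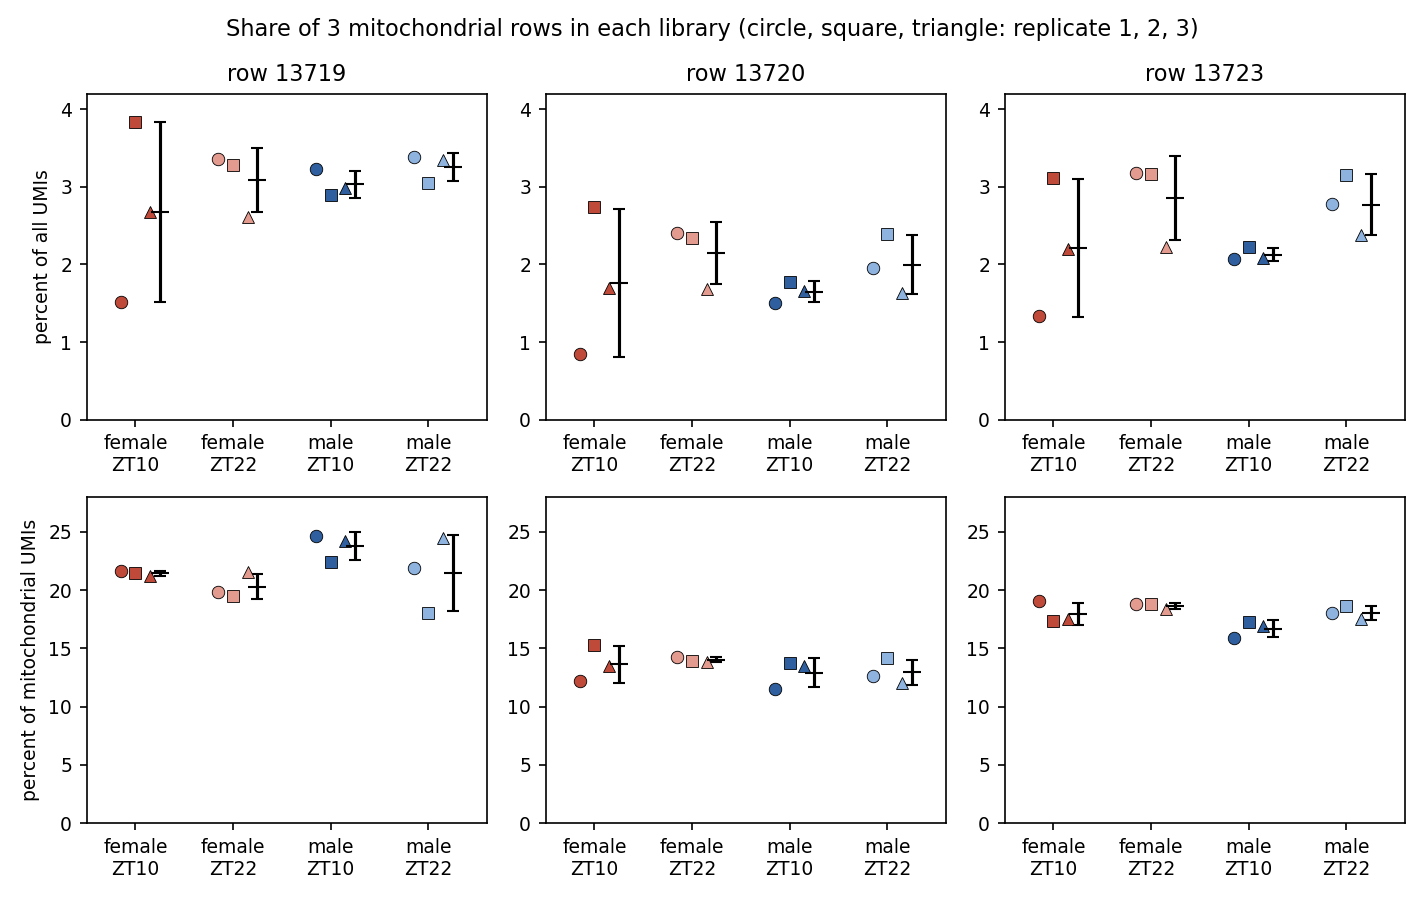
Share of each of the 3 rows in all UMIs (upper plots, percent) and in mitochondrial UMIs (lower plots, percent) for the 12 libraries, grouped by sex and time. Symbols are libraries and the bars give the group mean and SD (n = 3); the share of all UMIs spread from 1.52% to 3.84% for row 13719 at female ZT10, while its share of mitochondrial UMIs in the same libraries lay between 21.2% and 21.6%.

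To ask whether sex or time moved the rows relative to the other RNA of the cells, the UMIs of each library were summed and tested with edgeR's quasi-likelihood test across 12505 features. None of the 3 rows passed an adjusted p of 0.05 for sex, against 5.26% of all features tested, none passed for time, against 7.82%, and none for the interaction of both, against 0.00%. The interaction count of 0 stands beside 739 features with an unadjusted p under 0.05 in edgeR and 7 features called by DESeq2. The other 10 mitochondrial rows gave no call in any of the 3 contrasts either.

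Between the sexes, the log2 difference of row 13719, female minus male, was -0.08 ± 0.27 (SE, n = 6 and 6, edgeR adjusted p = 0.898), with a 95% interval from -0.66 to 0.49. For row 13720 it was 0.16 ± 0.29 (edgeR adjusted p = 0.798, interval -0.46 to 0.78). For row 13723 it was 0.11 ± 0.26 (edgeR adjusted p = 0.859, interval -0.45 to 0.67). The direction of these estimates was not stable: that of row 13719 became 0.07 without female ZT10 replicate 1, and those of rows 13720 and 13723 became -0.09 and -0.07 without female ZT10 replicate 2. The median of the 3 rows was 0.11, and that of all features tested -0.02.

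Between the times, the estimates of the 3 rows were higher at ZT22. The log2 difference, ZT22 minus ZT10, was 0.24 ± 0.27 for row 13719 (edgeR adjusted p = 0.718, interval -0.33 to 0.81) and 0.35 ± 0.29 for row 13720 (edgeR adjusted p = 0.589, interval -0.27 to 0.97). Row 13723 had the highest estimate, 0.45 ± 0.26 (edgeR adjusted p = 0.383, interval -0.11 to 1.01). The median of the 3 rows was 0.35, that of the other 10 mitochondrial rows 0.39 and that of all features 0.00. Without female ZT10 replicate 1 the estimates of rows 13719, 13720 and 13723 were 0.09, 0.18 and 0.31, and without female ZT10 replicate 2 they were 0.43, 0.60 and 0.63. The intervals include 0 as well as differences of 0.81 to 1.01. Cells of the libraries carried 6 codes at the start of their names, whose meaning is not given in the sources used here, and 0 of the 6 held both times, so time and code cannot be told apart. The interaction estimates, the time difference in females minus that in males, were 0.19, 0.13 and 0.10 for rows 13719, 13720 and 13723, with edgeR adjusted p of 0.962, 0.980 and 0.983.

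A share of all UMIs moves with the total mitochondrial content of a library, so the rows were next set against the mitochondrial UMIs alone. The shares of the 13 rows then sum to a whole, so differences of single rows are not independent results. The summed share of the 3 rows varied little, from 50.8% in male ZT22 replicate 2 to 54.6% in male ZT10 replicate 3, with a median of 52.9%. Row 13719 varied most among the 3, with 21.7% ± 2.03 (SD, n = 12) against 13.4% ± 1.10 for row 13720 and 17.8% ± 0.94 for row 13723.

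Row 13719 held 21.6%, 21.4% and 21.2% of mitochondrial UMIs in the female ZT10 libraries, and 19.9%, 19.5% and 21.5% in the female ZT22 libraries. In males it held 24.6%, 22.4% and 24.2% at ZT10, and 21.9%, 18.0% and 24.5% at ZT22. At ZT10 the 3 male libraries lay above the 3 female ones, and how often other rows separate in this way was not counted. At ZT22 the overlap came from male ZT22 replicate 2, the library with the high intronic fraction and the lowest value of the 12. In male ZT10 replicate 2, which had the fewest UMIs, the 95% Wilson interval of this share was 22.2% to 22.5%, and such intervals cover counting error only.

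The sexes and times were compared by exact two-sided permutation within the other factor, where 400 arrangements allow a smallest p of 0.005, with Benjamini-Hochberg adjustment over 12 tests. A single test at that smallest p, with no other near it, has an adjusted p of 0.06, so this permutation could hardly pass the threshold for 1 measure. Row 13719 held 20.9% ± 0.93 in females and 22.6% ± 2.52 in males (mean ± SD over 6 libraries each, exact permutation p = 0.130, adjusted 0.312). Without male ZT22 replicate 2 the difference, female minus male, went from -1.75 to -2.62 percentage points (exact permutation p = 0.0100, adjusted 0.0600), and without male ZT22 replicate 3 it was -0.997 (exact permutation p = 0.330, adjusted 0.495). Within each of the 4 codes that hold both sexes, the mean female share was the lower one, with differences of -3.12, -2.05, -1.75 and -2.996 percentage points. A code held 1 or 2 libraries of each sex, and no test was made. In the code with the difference of -1.75, the female library (19.5%) lay between the 2 male ones (18.0% and 24.5%). At ZT22 the share was 20.9% ± 2.27 against 22.6% ± 1.49 at ZT10 (exact permutation p = 0.125, adjusted 0.312). This difference of -1.70 percentage points was -0.84 without male ZT22 replicate 2 and -2.46 without male ZT22 replicate 3.

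Row 13723 held 19.0%, 17.3% and 17.5% of mitochondrial UMIs in female ZT10, and 18.8%, 18.8% and 18.3% in female ZT22. The male values were 15.9%, 17.3% and 16.9% at ZT10, and 18.0%, 18.7% and 17.5% at ZT22. The lowest values of the 12 were those of the male ZT10 libraries, and how often other rows show such an order was not counted.

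Row 13723 took 18.3% ± 0.71 in females and 17.4% ± 0.96 in males (exact permutation p = 0.0200, adjusted 0.210), and 3 of the 6 female libraries lay above all 6 male ones. Its share was 18.3% ± 0.52 at ZT22 and 17.3% ± 1.03 at ZT10 (exact permutation p = 0.0350, adjusted 0.210). Both raw p-values were the lowest of the 12 tests, in a design that could hardly pass the adjustment. With labels permuted over all libraries, the exact permutation p was 0.0801 for sex and 0.0584 for time (both adjusted 0.338). With cells under an intronic fraction of 0.3, permuted within the other factor, it was 0.065 and 0.04 (both adjusted 0.336). Within the 4 codes with both sexes the female share was higher by 2.33, 0.81, 0.69 and 0.61 percentage points, with no test.

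Row 13720 held 12.2%, 15.3% and 13.5% in female ZT10, 14.3%, 13.9% and 13.9% in female ZT22, 11.5%, 13.7% and 13.5% in male ZT10, and 12.7%, 14.1% and 12.01% in male ZT22. Its groups overlapped in both comparisons, with a difference between the sexes of 0.90 percentage points (exact permutation p = 0.20, adjusted 0.40) and between the times of 0.19 (exact permutation p = 0.770, adjusted 0.851). The sex difference was 0.48 without female ZT10 replicate 2 and 1.27 without female ZT10 replicate 1. The summed share of the 3 rows differed by 0.09 percentage points between the sexes (exact permutation p = 0.90, adjusted 0.90) and by -0.48 between the times (exact permutation p = 0.510, adjusted 0.680). Within the same codes the sex difference of the summed share was 1.45, 0.39, -0.22 and -2.45 percentage points, so it had no common sign.

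Of the 2 ratios to row 13720, that of row 13719 had the wider range across libraries. There were 1.78, 1.40 and 1.58 UMIs of row 13719 for each UMI of row 13720 in female ZT10, and 1.39, 1.40 and 1.55 in female ZT22. The male libraries had 2.14, 1.63 and 1.79 at ZT10, and 1.73, 1.27 and 2.04 at ZT22. The highest and the lowest library were both male. The log2 ratio, female minus male, differed by -0.21 (exact permutation p = 0.115, adjusted 0.312), and ZT22 minus ZT10 by -0.14 (exact permutation p = 0.265, adjusted 0.454). The sex difference was -0.30 without male ZT22 replicate 2 and -0.13 without male ZT22 replicate 3, and the time difference -0.048 and -0.22 without the same libraries. Within the 4 codes with both sexes the sex difference of the mean log2 ratio was -0.44, -0.32, -0.20 and -0.18, with no test. In the code with -0.20, the ratio of the female library (1.40) lay between those of the male libraries (1.27 and 2.04).

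The ratio of row 13723 to row 13720 was 1.56, 1.13 and 1.3 in female ZT10 and 1.32, 1.35 and 1.32 in female ZT22. In males it was 1.38, 1.26 and 1.25 at ZT10, and 1.42, 1.32 and 1.45 at ZT22. Both extremes lay in the female ZT10 group, whose first and second replicates also had the lowest and highest mitochondrial share. The log2 ratio differed by -0.02 between the sexes (exact permutation p = 0.780, adjusted 0.851) and by 0.06 between the times (exact permutation p = 0.445, adjusted 0.667). The time difference was 0.12 without female ZT10 replicate 1 and 0.0053 without female ZT10 replicate 2.

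**Figure D2:**
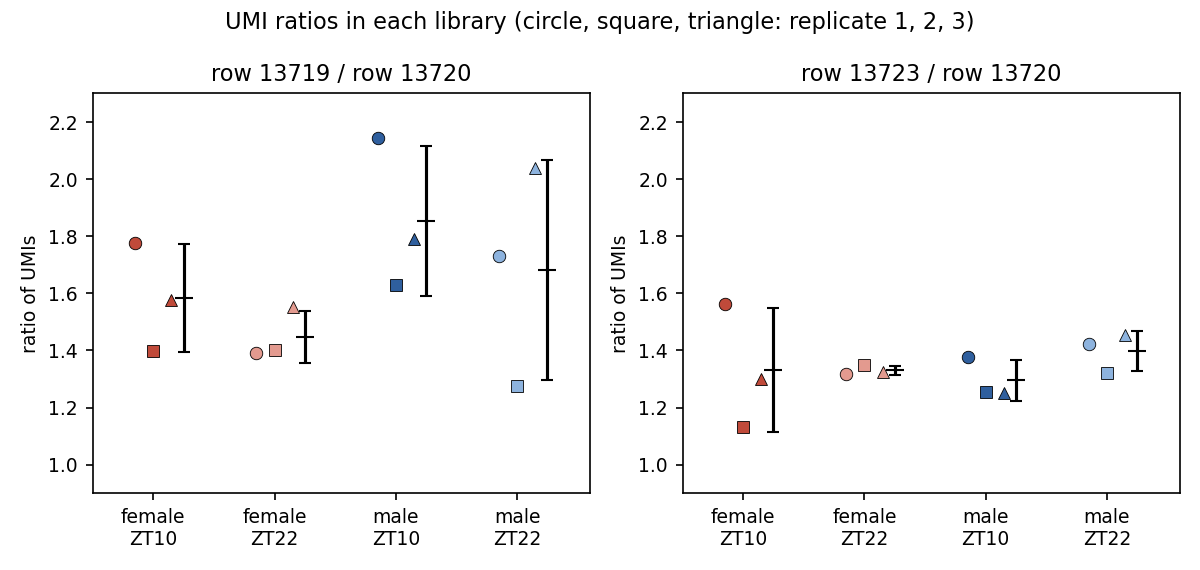
UMIs of row 13719 (left) and of row 13723 (right) for each UMI of row 13720 in the 12 libraries, grouped by sex and time, with the group mean and SD (n = 3). The left ratio spread from 1.27 to 2.14, both in male libraries, and the right one from 1.13 to 1.56, both in female ZT10 libraries.

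Inside the libraries, the composition of mitochondrial UMIs changed with the depth of a cell. The cells of each library were ordered by total UMIs and split into 3 sets of equal size (terciles), and the deepest tercile was compared with the shallowest, with UMIs summed within each. The library was the unit of the test, an exact two-sided sign-flip test over 12 differences whose smallest p is 0.000488, adjusted over 12 tests. The median depth averaged 1875 UMIs in the shallow and 4849 in the deep tercile.

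The 3 rows together rose from 5.26% ± 1.39 of all UMIs in shallow cells to 8.44% ± 2.26 in deep cells (SD, n = 12 libraries, exact sign-flip adjusted p = 0.00820), higher in 11 of 12 libraries. Male ZT10 replicate 2 was the exception, with 8.03% in its shallow and 5.99% in its deep tercile. The mitochondrial share moved with it, from 9.91% to 16.0% of all UMIs. Depth counts the UMIs of the 3 rows and of the other mitochondrial rows. Cells rich in them thus sort towards the deep tercile, and this part of the rise was not tested separately. Where the terciles were formed within terciles of the mitochondrial percentage, the difference of the 3 rows was 0.16 percentage points and was not called (exact sign-flip adjusted p = 0.361). The 3 rows made up 50.8% to 54.6% of the mitochondrial UMIs of each library. Holding the mitochondrial percentage thus largely holds their share of all UMIs, so this setting cannot decide on the part of depth.

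Within mitochondrial UMIs, row 13720 rose and row 13719 fell with depth. Row 13720 ranged from 10.5% through a median of 12.2% to 14.3% in shallow terciles, and from 11.9% through 14.0% to 15.7% in deep terciles. Its mean rose from 12.4% to 13.8%, by 1.35 ± 0.87 percentage points (SD of the differences, exact sign-flip adjusted p = 0.00391), and 11 of 12 libraries were higher. The exception was male ZT22 replicate 2, the library with the high intronic fraction, with 14.3% and 14.0%.

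Row 13719 ranged from 18.2% through a median of 22.9% to 26.1% in shallow terciles, and from 18.0% through 20.7% to 24.4% in deep terciles. Its mean went from 22.7% to 21.1%, a difference of -1.60 ± 1.61 percentage points (exact sign-flip adjusted p = 0.00879), and 11 of 12 libraries were lower. Male ZT22 replicate 3 was the exception, with 23.7% and 24.4%. Female ZT22 replicate 3 differed least among the libraries that were lower, with 21.43% and 21.40%.

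Row 13723 did not move in one direction with depth. Its share was 18.0% ± 0.99 in shallow and 17.8% ± 0.97 in deep terciles, higher in 6 and lower in 6 libraries, and the difference of -0.15 percentage points was not called (exact sign-flip adjusted p = 0.416).

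Both ratios to row 13720 fell with depth. The ratio of row 13719 to row 13720 went from 1.86 ± 0.35 to 1.55 ± 0.25, a log2 difference of -0.26 ± 0.19, lower in 11 of 12 libraries (exact sign-flip adjusted p = 0.00391). The ratio of row 13723 to row 13720 went from 1.46 ± 0.15 to 1.302 ± 0.10, a log2 difference of -0.16 ± 0.08, lower in 12 of 12 libraries (exact sign-flip p = 0.000488, the smallest the test can give, adjusted 0.00391). Shallow ratios ranged from 1.21 to 1.79 and deep ratios from 1.11 to 1.47, so the terciles overlapped across libraries although each library moved the same way.

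**Figure D3:**
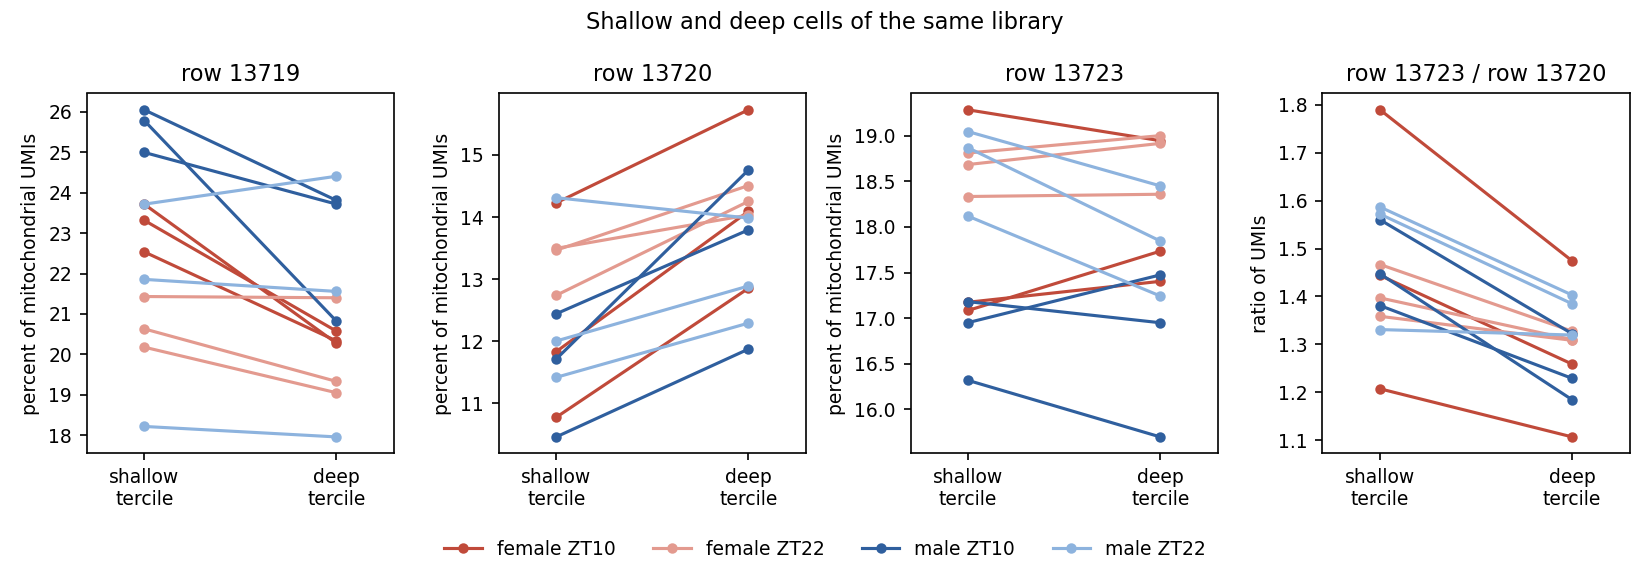
Percent of mitochondrial UMIs in rows 13719, 13720 and 13723, and UMIs of row 13723 for each UMI of row 13720, in the shallow and the deep tercile of the cells of each library, 1 line for each of the 12 libraries coloured by group. Vertical axes do not start at 0; row 13720 was higher in the deep tercile in 11 of 12 libraries and the ratio lower in 12 of 12.

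The median intronic fraction was also higher in deep terciles, 0.277 against 0.243, in 11 of 12 libraries. Where depth terciles were formed within terciles of the intronic fraction, row 13720 differed by 1.36 percentage points and row 13719 by -1.56, and where they were formed within terciles of the mitochondrial percentage, by 1.31 and -2.08. The calls for both rows and both ratios held in these settings. In the 4 clusters of the main cell population, described below, the differences were 1.64 and -2.55 percentage points.

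The intronic fraction, which in droplet data is a measure of unspliced and nuclear RNA, gave smaller differences. The median fraction averaged 0.174 in the intron-poor and 0.375 in the intron-rich tercile of a library. The 3 rows together fell from 7.74% ± 1.92 of all UMIs in intron-poor cells to 6.101% ± 1.52 in intron-rich cells (SD, n = 12 libraries, exact sign-flip adjusted p = 0.00732), lower in 11 of 12 libraries. Male ZT10 replicate 1 was the exception, with 5.73% and 6.79%. The mitochondrial share of all UMIs was 14.6% in intron-poor and 11.6% in intron-rich cells. The denominator of the intronic fraction is not given in the sources used here. If it holds mitochondrial UMIs, cells rich in them have a lower fraction by arithmetic, and this part of the fall was not tested. Within terciles of the mitochondrial percentage the fall of the 3 rows was smaller, -0.64 percentage points, and still called (exact sign-flip adjusted p = 0.00820). This setting largely holds the measured share itself, and each tercile still spans a range of mitochondrial percentages, so it cannot decide on the part of the intronic fraction.

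Within mitochondrial UMIs, row 13723 rose slightly with the intronic fraction, from 17.8% ± 0.94 to 18.0% ± 1.00, by 0.27 ± 0.33 percentage points (exact sign-flip adjusted p = 0.0259), higher in 10 of 12 libraries. The call was lost when cells were split at the median (0.15 percentage points, exact sign-flip adjusted p = 0.0695) and within terciles of the mitochondrial percentage (0.15, exact sign-flip adjusted p = 0.254). It was also lost without female ZT22 replicate 1, female ZT22 replicate 2 or male ZT10 replicate 3, with adjusted p of 0.0519, 0.0502 and 0.0519 in the exact sign-flip test. The ratio of row 13723 to row 13720 went from 1.32 ± 0.11 to 1.35 ± 0.11 and was not called (log2 difference 0.04, exact sign-flip adjusted p = 0.0527). With 1 library left out at a time, this ratio was called in 2 runs (lowest exact sign-flip adjusted p = 0.00837).

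Rows 13719 and 13720 gave no call by intronic fraction. Row 13719 differed by -0.52 percentage points and was higher in intron-rich cells in 7 of 12 libraries (exact sign-flip adjusted p = 0.307), and the difference was -0.25 without male ZT10 replicate 2. Row 13720 differed by -0.13 and was lower in 10 of 12 (exact sign-flip adjusted p = 0.532). Without female ZT22 replicate 3, where it went from 13.3% to 14.8%, the difference was -0.28 (exact sign-flip adjusted p = 0.0534). Their ratio differed by -0.02 on the log2 scale (exact sign-flip adjusted p = 0.636).

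The mitochondrial percentage itself holds the 3 rows in its numerator, so the composition along it is given as a description. From the lowest to the highest tercile of cells by mitochondrial percentage, the share of row 13723 in mitochondrial UMIs went from 19.0% ± 1.19 to 17.6% ± 0.97 and was lower in 12 of 12 libraries. The share of row 13719 was 20.2% ± 1.62 and 21.6% ± 2.17, higher in 9 of 12 libraries, and that of row 13720 was 13.4% and 13.5%. In quintiles, 5 sets of equal size, row 13719 had means of 19.7%, 21.0%, 22.6%, 22.6% and 21.2%, so its share was highest in the middle of the range and lower at both ends. Row 13723 had means of 19.2%, 18.6%, 18.0%, 17.7% and 17.6%, lower at each step. In the lowest quintile, where 2.31% of UMIs were mitochondrial on average, the shares of rows 13719 and 13723 differed by less than their SDs of 1.71 and 1.41.

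**Figure D4:**
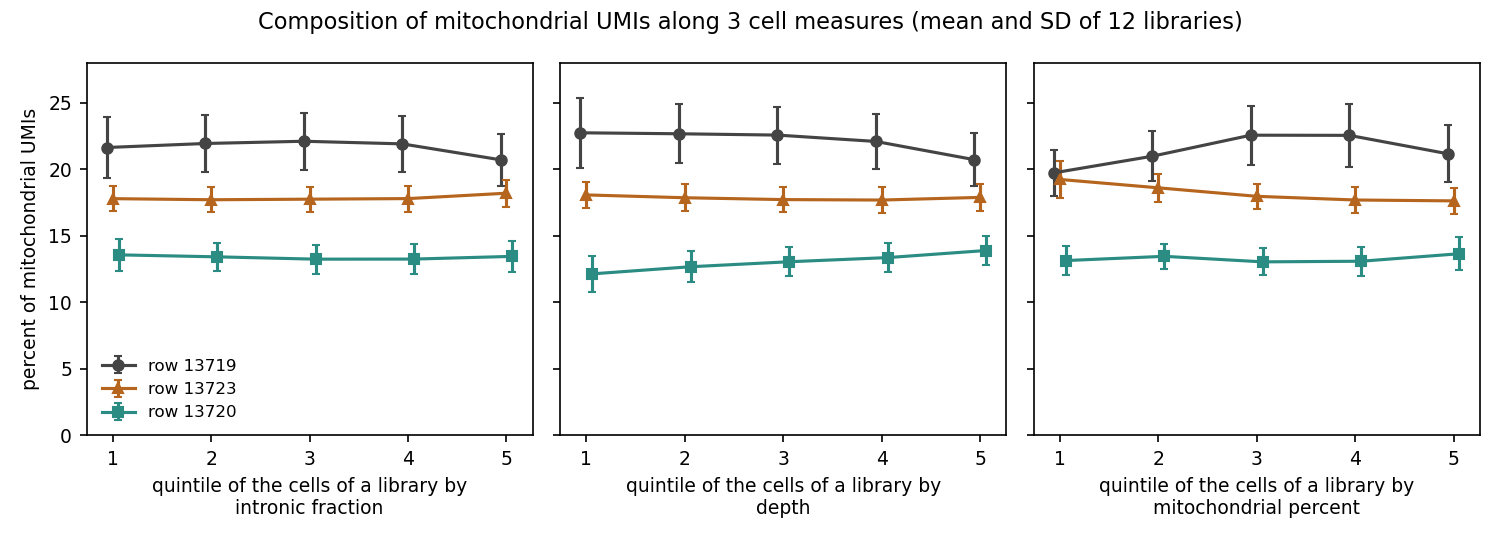
Percent of mitochondrial UMIs in rows 13719, 13723 and 13720 in quintiles of the cells of a library by intronic fraction (left), depth (middle) and mitochondrial percentage (right), as mean and SD of 12 libraries. Along depth, row 13720 went from 12.1% to 13.9% and row 13719 from 22.7% to 20.7%; along the mitochondrial percentage, row 13723 went from 19.2% to 17.6%.

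Single cells were compared where they held at least 200 mitochondrial UMIs, which 18195 cells or 58.7% did. The SD of the share between cells of a library exceeded the SD that counting alone gives for each row. For row 13719 the median over libraries was 3.50 percentage points between cells against 1.83 from counting, and the SD beyond counting, from the difference of the variances, was 2.87. For row 13720 it was 1.36 and for row 13723 0.95 percentage points. Row 13719 thus varied most between cells, as it did between libraries.

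Within a cell the shares of the 13 rows sum to a whole, which by itself sets them against each other. Given as a description, the correlation across cells of a library between the shares of rows 13719 and 13720 had a median of -0.43 over the 12 libraries, with a range from -0.67 to -0.23. For rows 13719 and 13723 it was -0.31, from -0.46 to -0.01. For rows 13720 and 13723 it was -0.04, from -0.16 to 0.25, so this pair had no common sign. The cells of a library share its preparation and the counts of a cell its depth.

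Cells were clustered without the 13 mitochondrial rows, into 7 clusters. The 4 clusters numbered 0 to 3 formed a main population of 26549 cells, 85.6% of all, and 3 clusters with strongly leading features were set apart. None could be named. Row 13719 held the highest share in cluster 1, 23.3% ± 2.43 of mitochondrial UMIs (SD, n = 12 libraries), and its lowest share among the 6 clusters present in 12 libraries in cluster 5, 18.7% ± 1.64. Within the main population cluster 3 had 19.5% ± 1.72, the lowest of the 4.

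Row 13720 went the other way, with 12.3% ± 1.20 in cluster 1 and 14.0% ± 1.12 in cluster 3. Row 13723 held 17.5% ± 0.92 in cluster 1, 18.8% ± 1.302 in cluster 3 and 19.3% ± 1.41 in cluster 5. In cluster 5 its mean lay above that of row 13719, 18.7% ± 1.64. The ratio of row 13719 to row 13720 was 1.92 ± 0.34 in cluster 1 and 1.34 ± 0.21 in cluster 5. The ranges over libraries overlapped, from 1.24 to 2.39 in cluster 1 and from 1.06 to 1.87 in cluster 5. Clusters 3 and 5 also had the lowest mitochondrial share, 6.17% and 6.30% of all UMIs against 16.0% in cluster 1, and their median depth was 2848 and 1716 UMIs against 2127 in cluster 1. No test was made between clusters, and the part of depth and mitochondrial content in these values was not tested. Cluster 6, with 77 cells, came to 98.7% from 1 library.

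**Figure D5:**
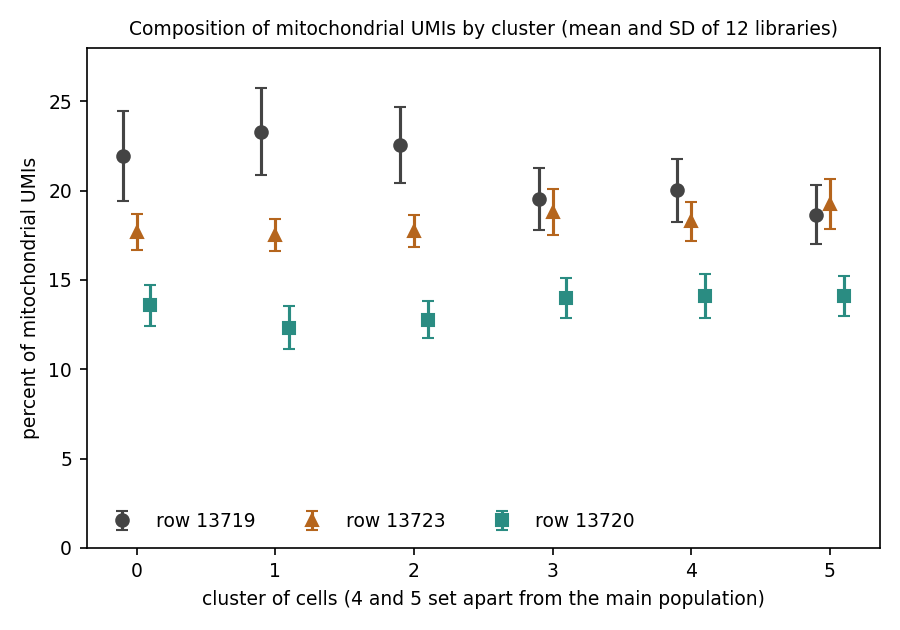
Percent of mitochondrial UMIs in rows 13719, 13723 and 13720 in 6 clusters of cells, as mean and SD of 12 libraries; cluster 6 is left out because it came nearly whole from 1 library. Row 13719 lay between 21.96% and 23.3% in clusters 0 to 2 and between 18.7% and 20.01% in clusters 3 to 5. Row 13723 came close below it in clusters 3 and 4 and lay above it in cluster 5 (19.3% against 18.7%).

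Across the 12 libraries, the feature most alike to each of the 3 rows was another mitochondrial row. Not every mitochondrial row ranked high: row 13721 took rank 174, 547 and 397 for rows 13719, 13720 and 13723. Likeness was measured as Pearson's r of log2 of TMM-scaled counts plus 1, as a description, since the 13 rows of a library share its total mitochondrial content. Among 12504 features, row 13720 was most alike to row 13722 (r = 0.994) and next to row 13723 (r = 0.977). Row 13723 was most alike to row 13726 (r = 0.991) and then to row 13722 (r = 0.990). Row 13719 was most alike to row 13726 (r = 0.934), and rows 13720 and 13723 came eighth and ninth with 0.889 and 0.885. Row 13719 thus stood further from both others than they stood from each other. Outside the 13 rows, features 7101 (r = 0.961) and 5927 (r = 0.907) were most alike to the mean of the 3 rows.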

How the data were processed

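The deposited count table holds UMI counts per feature and cell for 31003 cells, with a deposited table of cell values: the mitochondrial percentage as a percent and the intronic fraction as a fraction between 0 and 1, whose denominator is not given in the sources used here. Cell Ranger 6.1.2, Seurat and mm10 are named per the submitters' processing notes, without role or order. Gene annotation and cell filters are not given in the sources used here. The highest deposited mitochondrial percentage was 39.99. No doublet caller was run and no cell was removed.

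UMI counts were summed per library over all cells and tested with edgeR 4.0.16 (quasi-likelihood, TMM, filterByExpr by group, 1 mean per group, Benjamini-Hochberg threshold 0.05), with DESeq2 1.42.0 as an alternative. The script was tested on simulated data. Shares and ratios per library, and terciles of cells within libraries, were compared with the exact tests named in the text. Cells were clustered with scanpy 1.11.5 and igraph 0.11.9 (2000 variable features, 8 principal components, 15 neighbours, Leiden resolution 0.3), and clusters whose 10 leading features had a median fold over 8 were set apart. The 3 rows are given throughout and the other 10 by counts. The rows most alike by correlation are named, with 2 features outside the 13. The members, lists and tests were chosen with earlier results of these data known.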

Additional observations from a re-analysis of the deposited data

How the results depend on the processing

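Wilson intervals cover counting error only, and the part of cell depth in the comparisons between libraries was not tested. The 3 rows stayed uncalled for sex, time and interaction in edgeR and DESeq2 under the normalizations, filters, cell choices and left-out libraries tried. The cause of the changes below was not tested. In the main population the sex difference of row 13719 was 0.020 on the log2 scale. With cells under an intronic fraction of 0.3, the interaction estimates of rows 13720 and 13723 were -0.082 and -0.093, and without the second part of male ZT10 replicate 2, chosen after seeing the data, that of row 13723 was -0.0020. DESeq2 called 7 features for the interaction against 0. With the code of the cell names as a block, also chosen after seeing the data, 413 features were called for sex against 658. The sex difference of the summed share in mitochondrial UMIs, 0.09 percentage points, was -0.071 as a median over cells, -0.062 in the main population, -0.24 with cells under an intronic fraction of 0.3 and -0.08 without the second part.

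By depth, the share of row 13723 differed by 0.16 percentage points within terciles of the mitochondrial percentage and by 0.12 in the main population, against -0.15, and was not called. The 3 rows together differed by 0.16 and lost the call in the first of these settings, which largely holds their share of all UMIs. By intronic fraction, the share of row 13723 lost its call when cells were split at the median (0.15) and within terciles of the mitochondrial percentage (0.15). The log2 ratio of row 13723 to row 13720, 0.04 and uncalled, was called within terciles of depth (0.050, exact sign-flip adjusted p = 0.0117), in the main population (0.044, 0.0218) and without the second part (0.040, 0.0242).

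Leaving out 1 library at a time gave 526 to 775 calls by sex, 674 to 1361 by time and 0 to 0 by interaction. The log2 sex difference then ranged from -0.27 to 0.068 for row 13719, -0.089 to 0.33 for row 13720 and -0.072 to 0.25 for row 13723. The log2 time difference ranged from 0.090 to 0.43, 0.18 to 0.60 and 0.31 to 0.63 for the same rows. The interaction estimate ranged from -0.11 to 0.58, -0.22 to 0.62 and -0.18 to 0.45 for the same rows. The sex difference of the summed share ranged from -0.32 to 0.47 percentage points, that of the log2 ratio of row 13723 to row 13720 from -0.082 to 0.035, and the time difference of the share of row 13720 from -0.18 to 0.61. By intronic fraction, the log2 ratio of row 13719 to row 13720 ranged from -0.032 to 0.0089, that of row 13723 to row 13720 from 0.031 to 0.047 and the share of row 13723 from 0.21 to 0.32 percentage points. The log2 ratio of row 13723 to row 13720 was called in 2 of these runs.

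What a shared replicate number marks is not stated in the labels. The deviations of same-numbered libraries from their group means correlated over 0.1 in 8 of 18 pairs, with a range from -0.25 to 0.53 over 7357 features. All 3 pairs of the female and male ZT10 libraries were among these 8, with 0.22 to 0.36. With the replicate block, the calls were 746 features by sex, 1051 by time and 0 by interaction, the time difference of row 13723 was 0.46 on the log2 scale, and the sex difference of the share of row 13719 was -1.75 percentage points (exact sign-flip adjusted p = 0.250). For shares and ratios, 64 sign flips of pairs allow a smallest p of 0.03125, and 8 of the 12 tests would have to reach it for a call, so the block could hardly give one there. In edgeR the block changed no call of the 3 rows.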
